A study of Mus musculus with 6 samples.

Results

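The genes described are 9 genes of the Notch pathway, chosen by symbol: the receptors Notch1, Notch2 and Notch3, the ligands Jag1 and Dll1, and the targets Hes1, Hey1, Heyl and Nrarp. All 9 are among the 14228 genes of the deposited count table. RNA was measured in 3 libraries of cancer-associated fibroblasts (CAF) and 3 libraries of fibroblasts from control stomachs (normal) of 8-week-old mice, all of which carried the triple-transgenic iLgr5;GLI2A combination, a gastric cancer model built to switch on an active GLI2 in Lgr5-expressing cells. CAF mice received tamoxifen in corn oil by gavage for 5 days and then doxycycline chow for 3 weeks, with doxycycline also in sweetened drinking water for the first 3 days. Control mice received corn oil and no doxycycline, so the disease and the drugs given to induce it cannot be told apart. CAF libraries 1, 2 and 3 held cells of 1, 2 and 2 mice, and normal libraries 1, 2 and 3 held cells of 1, 1 and 2 mice. Cells were sorted as live, podoplanin-positive and negative for CD31, CD45 and EpCAM, and the libraries were made by MARS-seq, which counts the 3′ ends of polyadenylated transcripts.

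Notch receptors are single-pass membrane proteins that are cut when a ligand on a neighbouring cell binds them, and the freed intracellular part enters the nucleus and turns the DNA-binding protein RBPJ into an activator. Hes1, Hey1 and Heyl, which encode transcriptional repressors, and Nrarp, which encodes a feedback inhibitor of the pathway, are well-known direct targets. In the stomach, Notch signalling is known for keeping epithelial stem and progenitor cells undifferentiated, whereas Notch3 is best known from pericytes and vascular smooth muscle and Notch4 from endothelium.

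Library totals ranged from 644522 to 6422568 counts in CAF and from 768420 to 3259644 in normal fibroblasts. All 12 fibroblast identity genes looked up were in the table, with a summed level of 10842 to 31815 CPM (counts per 1000000 of the scaled library size) in CAF and 6282 to 18434 CPM in normal libraries. General epithelial genes summed to 1396 to 3135 CPM in CAF and 1113 to 5257 CPM in normal libraries, with 4 of 10, Epcam and Cldn3 among them, higher in mean in CAF and 6 lower. Cldn3 was at 116, 74.9 and 74.5 CPM in CAF libraries 1, 2 and 3, against 5.71, 2.53 and 3.75 CPM in normal libraries 1, 2 and 3. It was called as higher in CAF (adjusted p = 0.0124 by the edgeR test given below), as were 0.897% of all genes tested. Genes of gastric gland cells stood apart in the controls: their summed level was 5404 to 7588 CPM in CAF libraries, against 266458, 187593 and 39609 CPM in normal libraries 1, 2 and 3, and all 18 had a lower mean in CAF. The genes of the list did not all follow this order within the controls. Pgc was at 159236, 94151 and 11196 CPM in normal libraries 1, 2 and 3. Gkn1 was at 4416, 1975 and 5331 CPM there, and Gkn2 at 3100, 1943 and 3493 CPM. Each other gene of the list was lower in normal library 3 than in normal library 1, Tff1 only slightly (14842 against 14945 CPM). Squamous forestomach genes were at 98.0 to 124 CPM in CAF libraries, against 2131, 2933 and 165 CPM in normal libraries 1, 2 and 3. In bulk libraries such as these, fewer cells of a type and less RNA per cell cannot be told apart.

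Start regions are shown for 2 genes, neither of which was called. They are Nrarp, of the targets that passed the filter on low counts the one with the smallest p, and Notch3, the receptor with the smallest p. Each run is the 250 bases before the RefSeq start (GRCm38.p6), for Nrarp chr2:25180508-25180757 on the plus strand and for Notch3 chr17:32166891-32167140 on the minus strand, and capitals mark matches on either strand to GGGCGG (the GC box), CCAAT and CACGTG (an E-box that HEY proteins can bind).
Nrarp: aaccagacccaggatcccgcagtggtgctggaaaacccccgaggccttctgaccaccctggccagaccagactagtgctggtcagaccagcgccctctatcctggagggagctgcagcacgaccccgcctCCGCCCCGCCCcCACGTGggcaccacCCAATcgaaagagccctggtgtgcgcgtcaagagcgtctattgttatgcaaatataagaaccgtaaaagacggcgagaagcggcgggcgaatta
Notch3: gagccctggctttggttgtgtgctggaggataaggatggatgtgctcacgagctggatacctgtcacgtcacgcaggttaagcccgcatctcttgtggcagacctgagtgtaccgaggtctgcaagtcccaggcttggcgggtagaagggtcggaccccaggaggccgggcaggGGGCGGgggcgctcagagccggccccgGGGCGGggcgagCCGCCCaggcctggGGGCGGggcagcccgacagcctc
The Notch3 region held 4 GC boxes and the Nrarp region 2, which overlap. The Nrarp region was the only 1 of the 7 member regions with CACGTG, whose first base lay 108 bases before the start, and 6.02% of all 32851 regions held that motif. The RBPJ core TGGGAA was in none of the 7 member regions and in 21.6% of all regions, and the longer GTGGGAA, which contains it, in none and in 5.42%. GGGCGG was in 4 of the 7 (Notch1, Notch2, Notch3 and Nrarp) and in 32.7% of all, and CCAAT was in 2 of the 7 (Dll1 and Nrarp) and in 33.8%. RefSeq regions matched 6 of the 9 members, with a pair of start sites for Dll1; Hes1, Hey1 and Heyl had none. A match is a run of letters and does not show binding.

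None of the Notch genes passed the test between CAF and normal fibroblasts. In edgeR's quasi-likelihood fit, with p-values adjusted after Benjamini and Hochberg, 0 of the 8 members that passed the filter on low counts were called at an adjusted p of 0.05, where 1.1% of the 10148 genes tested were called, 0.897% as higher and 0.207% as lower in CAF. DESeq2 called 0 of 9 (2 at an unadjusted p under 0.05) and limma-voom 0 of 8 (4 unadjusted), where they called 7.28% and 0.641% of all genes they tested. At an unadjusted p under 0.05, 1 of the 8 (Nrarp) passed, beside 15.3% of all genes tested. On simulated counts the edgeR test called 2 of 47 genes changed 2-fold and 24 of 48 changed 4-fold. A gene that was not called may thus still differ by such folds. The 8 log2 fold changes ran from -1.72 for Nrarp to 1.59 for Jag1, 4 positive and 4 negative, with a median of 0.12 beside 0.06 for all genes tested. Hey1 did not pass the filter, and its groups did not overlap, as was so for 10.4% of all listed genes with higher CAF values, 8.55% with lower and 19% in either direction. The groups of the other 8 members overlapped.

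**Figure D1:**
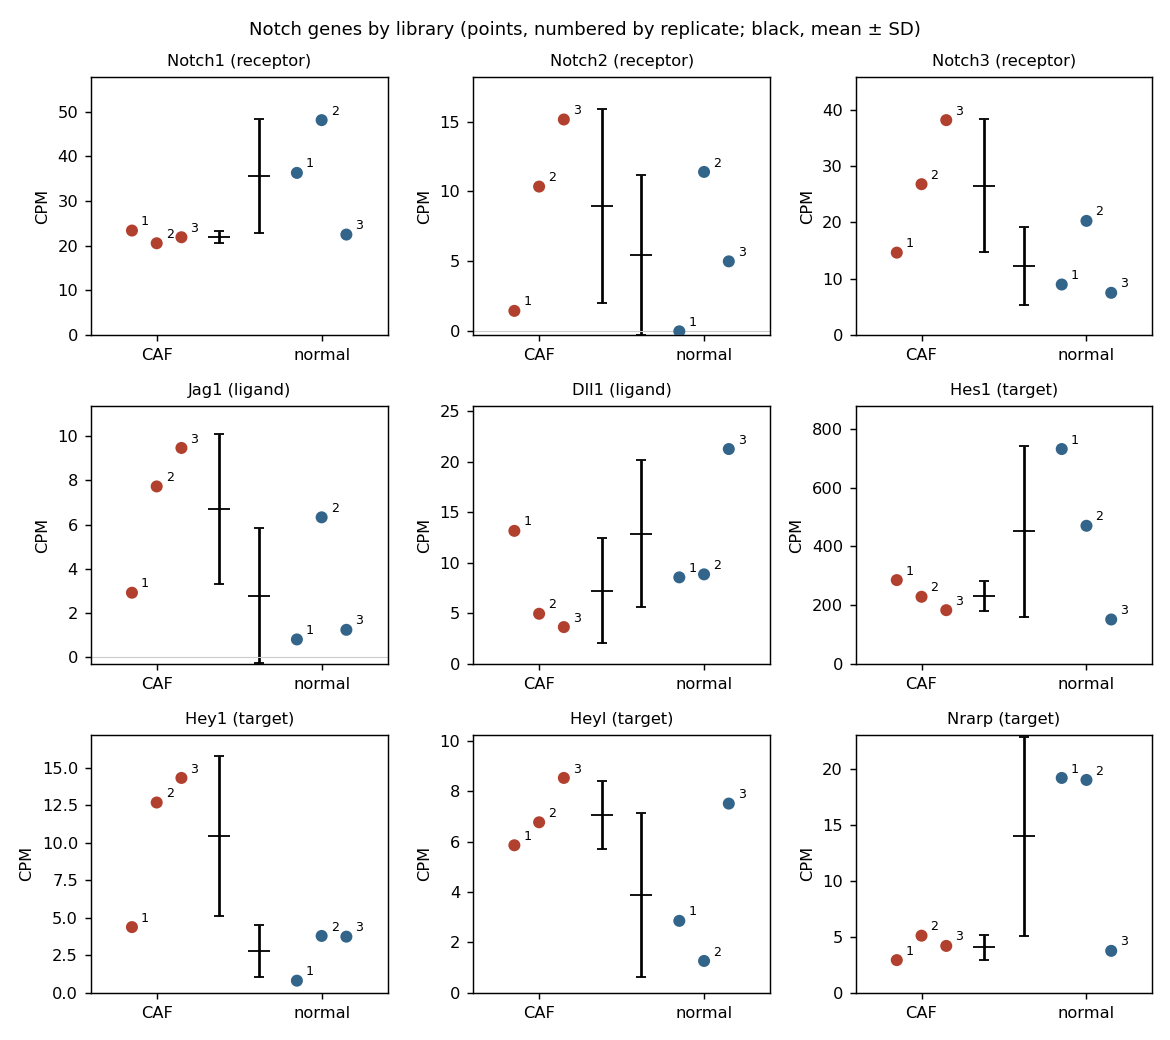
Level of each of the 9 Notch genes in CPM (vertical axis) in 3 CAF libraries (left, red) and 3 normal libraries (right, blue); points carry the replicate number, and black marks give the mean ± SD of each group. Hey1 is the gene whose groups do not overlap, and Hes1 and Nrarp are high in normal libraries 1 and 2 alone.

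Among the 3 receptors, Notch3 and Notch2 had higher means in CAF and Notch1 a lower one, and Notch3 had the smallest p. Notch3 (mm10 chromosome 17, 32120820 to 32166852, minus strand) was at 14.6, 26.8 and 38.1 CPM in CAF libraries 1, 2 and 3, against 8.98, 20.3 and 7.50 CPM in normal libraries 1, 2 and 3. CAF libraries 2 and 3 lay above every normal library, and CAF library 1 lay below normal library 2. The means were 26.5 ± 11.8 CPM in CAF and 12.2 ± 6.98 CPM in the controls (SD, n = 3 each, as for all means given here), and the log2 fold change was 1.19 ± 0.54 (SE; adjusted p = 0.357 by edgeR). Within the libraries of 2 mice, Notch3 was higher in CAF by 2.11 on the log2 scale, and within the deeper libraries by 1.78. It differed by -0.0038 and 0.02 within the libraries of 1 mouse and within the shallower libraries. These 4 subsets hold 3 libraries each, so 1 group is a lone library that is assumed to vary like the other group. CAF libraries 2 and 3 are the CAF libraries both in the subset of 2 mice and in the deeper subset.

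Notch3 is also a marker of pericytes and smooth muscle, and other genes of those cells were measured beside it. The 11 genes of that list summed to 1280, 1195 and 613 CPM in CAF libraries 1, 2 and 3, against 604, 409 and 704 CPM in normal libraries 1, 2 and 3, with 8 of 11 higher in mean in CAF. CAF library 3, the highest in Notch3, was the lowest CAF library in this sum. The groups did not overlap for 3 of the 11: Kcnj8 and Actg2 were higher in CAF, and the smooth muscle myosin Myh11 was lower. Of all listed genes, 19% did not overlap in either direction. Myh11 was at 20.5, 47.9 and 30.6 CPM in CAF libraries 1, 2 and 3, against 184, 134 and 141 CPM in normal libraries 1, 2 and 3. It was called as lower in CAF (adjusted p = 0.0486 by edgeR), as were 0.207% of all genes tested. Kcnj8, a pericyte potassium channel gene, was at 48.3, 170 and 87.8 CPM in CAF libraries 1, 2 and 3, against 6.94, 11.4 and 27.5 CPM in normal libraries 1, 2 and 3. The pericyte gene Higd1b was at 0, 3.04 and 0.676 CPM in CAF libraries, against 0 in all normal libraries, and Rgs5, another, was at 1.46, 19.9 and 6.76 CPM in CAF libraries, against 11.8, 13.9 and 11.3 CPM in normal libraries. The counts of 0 for Higd1b allow up to 1.22, 3.80 and 3.75 CPM in normal libraries 1, 2 and 3 (counting error only). Its levels thus cannot be ranked between the groups. The part of such cells in the Notch3 values was not tested.

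Notch1, the receptor of many epithelial and endothelial cells, was steady in CAF and variable in the controls. Notch1 (chromosome 2, 26457903 to 26516663, minus strand) was at 23.4, 20.6 and 21.9 CPM in CAF libraries 1, 2 and 3, against 36.3, 48.1 and 22.5 CPM in normal libraries 1, 2 and 3. Normal libraries 1 and 2 were the high ones, and normal library 3 lay among the CAF values. The log2 fold change was -0.71 ± 0.38 (SE; adjusted p = 0.447), and it was 0.013 against normal library 3 alone, with the high libraries left out. These libraries also had the highest gland sums, and the part of gland RNA in the Notch1 values was not tested. The gene 0610009E02Rik overlaps the Notch1 gene on the opposite strand, and strand use in counting is not given in the sources used here.

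Notch2, a receptor with many sites of expression, had too few counts to place. Notch2 (chromosome 3, 98013527 to 98150361, plus strand) had 1, 75 and 112 counts in CAF libraries 1, 2 and 3 (1.46, 10.4 and 15.1 CPM), against 0, 9 and 4 counts in normal libraries 1, 2 and 3 (0, 11.4 and 5.0 CPM). The count of 0 in normal library 1 allows a level of up to 1.22 CPM (the level of 3 counts; counting error only). The lowest library of each group was far below its others, and the log2 fold change of 1.06 ± 1.21 (SE; adjusted p = 0.755) had an error larger than itself. It was 0.23 without normal library 1, 2.49 without normal library 2 and 2.95 with limma-voom.

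The balance between the receptors was also read within each library, where no scaling enters; this measure was chosen after the values were seen. Notch3 gave 38.5%, 56.6% and 63.5% of the Notch1 plus Notch3 counts in CAF libraries 1, 2 and 3, with 95% exact binomial intervals of 20.2 to 59.4%, 51.1 to 61.9% and 58.8 to 68.0%. In normal libraries 1, 2 and 3 it gave 19.8%, 29.6% and 25.0%, with intervals of 12.9 to 28.5%, 18.0 to 43.6% and 9.77 to 46.7%. All 3 CAF libraries lay above all 3 normal libraries, and the interval of CAF library 1, which rests on 26 counts, overlapped those of the controls. The mean share was 52.8 ± 12.9% in CAF and 24.8 ± 4.91% in normal fibroblasts (SD, n = 3 each), a difference of 28.0 percentage points (exact permutation test, two-sided, p = 0.1, the smallest that 3 against 3 can give; 0.2 after adjustment over the 3 pairs compared). The difference was 22.7 to 35.2 points with 1 library left out, 27.8 points without normal libraries 1 and 2, 35.0 and 13.7 points within the libraries of 2 mice and of 1 mouse, and 40.2 and 11.1 points within the deeper and the shallower libraries. The Jag1 share of Jag1 plus Dll1 counts and the Hey1 share of Hey1 plus Hes1 counts overlapped between the groups (exact permutation p = 0.2 for each, also 0.2 adjusted). Each of the 3 pairs joins a member with a higher mean in CAF to a member with a lower one. A higher mean share in CAF was thus built into that choice, which the adjustment does not cover.

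**Figure D2:**
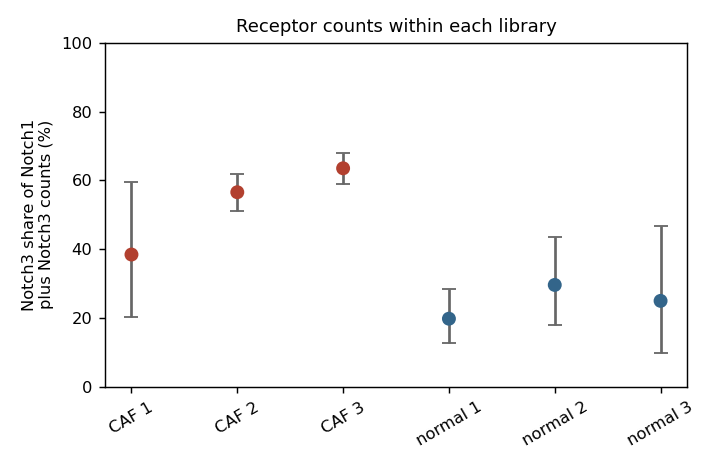
Share of the Notch1 plus Notch3 counts that were Notch3 (percent, vertical axis) in each CAF library (red, left) and normal library (blue, right), with 95% exact binomial intervals for counting error. CAF libraries lie between 38.5% and 63.5%, above the normal libraries at 19.8% to 29.6%.

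The ligands Jag1 and Dll1, which differ in that Jagged proteins carry a cysteine-rich domain that Delta proteins lack, had fold changes of opposite sign. Jag1 (chromosome 2, 137081456 to 137116644, minus strand) had 2, 56 and 70 counts in CAF libraries 1, 2 and 3 (2.93, 7.73 and 9.47 CPM), against 2, 5 and 1 counts in normal libraries 1, 2 and 3 (0.816, 6.33 and 1.25 CPM). CAF libraries 2 and 3 were above every normal library, and CAF library 1 was below normal library 2. The mean Jag1 level was 6.71 ± 3.39 CPM in CAF, against 2.80 ± 3.07 CPM in the controls. The log2 fold change of 1.59 ± 0.87 (SE; adjusted p = 0.456) became 2.87 without normal library 2, the highest of the 3 fits with 1 library left out in which Jag1 passed the filter. Within the deeper libraries it was 3.30 (against normal library 1 alone).

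Dll1 (chromosome 17, 15367354 to 15376872, minus strand) was at 13.2, 4.97 and 3.65 CPM in CAF libraries 1, 2 and 3, against 8.57, 8.87 and 21.3 CPM in normal libraries 1, 2 and 3. CAF libraries 2 and 3 were below every normal library, and CAF library 1 was above normal libraries 1 and 2. The log2 fold change was -0.99 ± 0.68 (SE; adjusted p = 0.576). Within the libraries of 2 mice it was -2.29, and within the libraries of 1 mouse it was 0.53. Dll1 was thus highest in the control library with the lowest gland sum, and the part of gland RNA in the Dll1 values was not tested.

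Hes1 and Nrarp had the same split within the controls. Hes1 (chromosome 16, 30064384 to 30067796, plus strand) was at 285, 229 and 183 CPM in CAF libraries 1, 2 and 3, against 731, 470 and 151 CPM in normal libraries 1, 2 and 3. Nrarp (chromosome 2, 25180758 to 25183339, plus strand) had 2, 37 and 31 counts in CAF libraries (2.93, 5.11 and 4.19 CPM), against 47, 15 and 3 counts in normal libraries (19.2, 19.0 and 3.75 CPM). For each gene normal libraries 1 and 2 were above every CAF library, and normal library 3 was below all CAF values for Hes1 and among them for Nrarp.

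The mean Hes1 level was 232 ± 51.3 CPM in CAF, against 451 ± 290.2 CPM in the controls, and the log2 fold change was -0.96 ± 0.55 (SE; adjusted p = 0.48). For Nrarp the means were 4.08 ± 1.09 CPM in CAF and 14.0 ± 8.86 CPM in the controls, and the log2 fold change was -1.72 ± 0.65 (SE; unadjusted p = 0.0309 and adjusted p = 0.263 by edgeR). Without normal library 3 they passed as lower in CAF, by -1.45 for Hes1 (adjusted p = 0.0382) and -2.19 for Nrarp (adjusted p = 0.033). Calls were common in that fit, at 1193 of the 11888 genes tested. Against normal library 3 alone the direction turned, to 0.66 for Hes1 (adjusted p = 0.538) and 0.27 for Nrarp (adjusted p = 0.913), in a fit where the median of all genes shifted by 0.11. Normal libraries 1 and 2 are the ones in which these genes lay above CAF, so leaving them out takes the difference away by construction and leaves 1 normal library. The summed gland and squamous levels were also highest in normal libraries 1 and 2, and their part in the Hes1 and Nrarp values was not tested. Of the immediate early genes, which respond to cell handling, 12 of 13 had a lower mean in CAF (summed level 10570 to 12368 CPM in CAF, against 12083 to 20401 CPM in normal libraries, with the highest in normal library 3); their part in the Hes1 values was not tested.

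**Figure D3:**
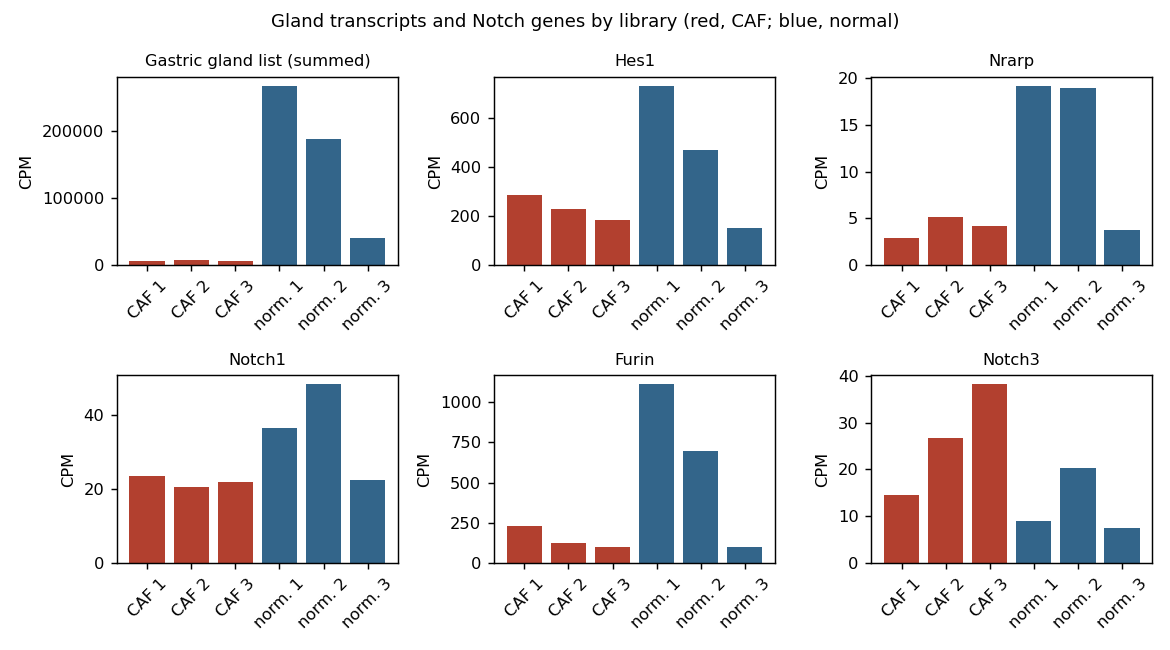
Levels in CPM (vertical axes, bars from 0) of the summed gastric gland list, of Hes1, Nrarp, Notch1 and Furin, and of Notch3, in CAF libraries 1 to 3 (red, left) and normal libraries 1 to 3 (blue, right). The gland sum, Hes1, Nrarp, Notch1 and Furin are highest in normal libraries 1 and 2, and Notch3 is highest in CAF libraries 2 and 3.

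Hey1 and Heyl, the hairy-related repressors best known from blood vessels, had higher means in CAF. Hey1 (chromosome 3, 8663359 to 8667256, minus strand) had 3, 92 and 106 counts in CAF libraries 1, 2 and 3 (4.39, 12.7 and 14.3 CPM), against 2, 3 and 3 counts in normal libraries 1, 2 and 3 (0.816, 3.80 and 3.75 CPM). CAF library 1 exceeded normal library 2 by less than the level of 1 count in either. The mean Hey1 level was 10.5 ± 5.33 CPM in CAF, against 2.79 ± 1.71 CPM in the controls, a ratio of 3.76, and with no filter on low counts its log2 fold change was 2.20 ± 0.80 (SE; adjusted p = 0.222). It was 1.52 to 2.56 with 1 library left out, in the 4 such fits where it passed the filter.

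Heyl (chromosome 4, 123233556 to 123249875, plus strand) was at 5.85, 6.76 and 8.52 CPM in CAF libraries 1, 2 and 3, against 2.86, 1.27 and 7.50 CPM in normal libraries 1, 2 and 3. Normal library 3 lay among the CAF libraries and the other normal libraries lay below them, the reverse of Nrarp. The log2 fold change was 0.95 ± 0.67 (SE; adjusted p = 0.582), and 0.012 against normal library 3 alone. Endothelial genes were read beside these targets. Pecam1, the CD31 gene used in the sort, was at 0, 3.73 and 4.19 CPM in CAF libraries, against 9.39, 8.87 and 0 CPM in normal libraries. The summed endothelial level was 67.3 to 70.0 CPM in CAF and 46.3 to 77.3 CPM in normal libraries, with 5 of 10 genes higher in mean in CAF.

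**Figure D4:**
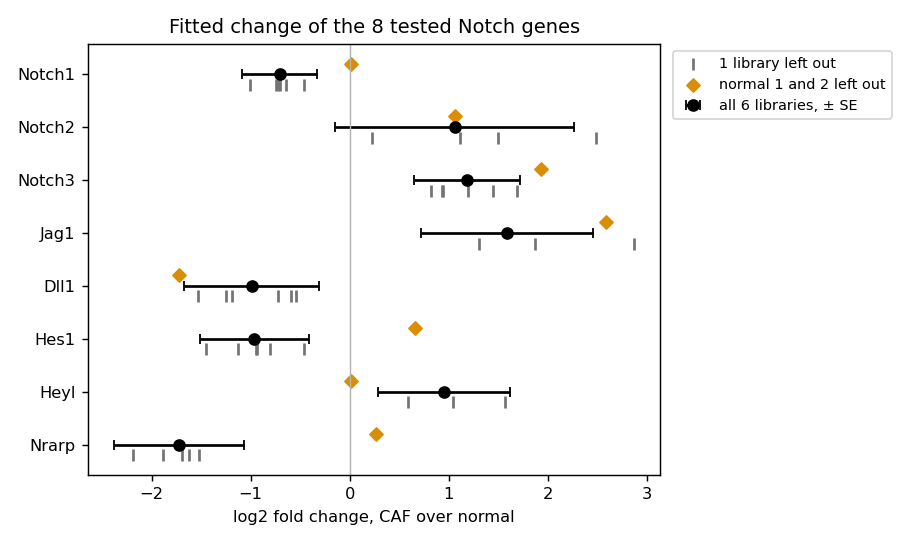
Log2 fold change of CAF over normal (horizontal axis) for the 8 tested Notch genes; black points with bars give the estimate ± SE from all 6 libraries, grey ticks the fits with 1 library left out in which the gene passed the filter, and diamonds the fit against normal library 3 alone. Notch3, Jag1 and Dll1 lie further from 0 without normal libraries 1 and 2, whereas Notch1 and Heyl lie at 0.013 and 0.012 and Hes1 and Nrarp lie above 0.

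The rest of the pathway was read from a list of 58 genes, of which 51 were in the table and 43 passed the filter. None was called in either direction, 5 had an unadjusted p under 0.05, and the median log2 fold change was 0.26 beside 0.06 for all genes tested (26 positive, 17 negative). DESeq2 called 2 of the 50 it tested, Notch4 and Jag2, beside 7.28% of all genes, and limma-voom called 0 of 43, with 6 at an unadjusted p under 0.05. The groups did not overlap for 4 genes that were higher in CAF and 6 that were lower, beside the 10.4% and 8.55% of all listed genes given above.

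Notch4, the receptor known from endothelium, was at 13.2, 14.2 and 15.6 CPM in CAF libraries 1, 2 and 3, against 1.63, 5.07 and 0 CPM in normal libraries 1, 2 and 3. All CAF libraries lay above all normal libraries, of which the third had no count, allowing up to 3.75 CPM. The log2 fold change was 2.76 ± 0.79 (SE; adjusted p = 0.14 by edgeR and 0.0139 by DESeq2), and 2.26 to 3.64 with 1 library left out. Its counts summed to 227 in CAF and 8 in normal libraries. Of the 10 endothelial genes, 5 had a higher and 5 a lower mean in CAF. The groups did not overlap for Cldn5, Cdh5 and Erg, higher in CAF, and for Tie1, lower in CAF. Of all listed genes, 10.4% did not overlap as higher, 8.55% as lower and 19% in either direction. The tight-junction gene Cldn5 was at 8.78, 9.66 and 6.63 CPM in CAF libraries, against 0.408, 0 and 0 CPM in normal libraries. The cadherin gene Cdh5 was at 14.6, 9.66 and 6.76 CPM in CAF libraries, against 2.86, 5.07 and 1.25 CPM in normal libraries. Tie1, an endothelial receptor kinase gene, was at 1.46, 2.21 and 0.406 CPM in CAF libraries, against 2.86, 3.80 and 6.25 CPM in normal libraries. Its level in CAF library 1 is that of 1 count, and its levels in CAF library 3 and normal library 2 are those of 3 counts. The levels of Cldn5 in normal library 1 and of Cdh5 in normal library 3 are also those of 1 count. Pecam1, Kdr, Tek, Esam, Vwf and Egfl7 overlapped, as did the summed level given above. The part of endothelial RNA in the Notch4 values was not tested.

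Jag2, the ligand closest to Jag1, had 1, 12 and 19 counts in CAF libraries 1, 2 and 3 (1.46, 1.66 and 2.57 CPM), against 33, 8 and 5 counts in normal libraries 1, 2 and 3 (13.5, 10.1 and 6.25 CPM). All CAF libraries lay below all normal libraries, and the order within the controls followed the gland sum, whose part was not tested. The log2 fold change was -2.32 ± 0.57 (SE; adjusted p = 0.0953 by edgeR and 0.0214 by DESeq2). It was -2.61 to -2.26 in the 3 fits with 1 library left out in which Jag2 passed the filter. These were the fits without CAF library 1, normal library 2 or normal library 3. Jag2 passed the threshold without normal library 3 (adjusted p = 0.0341), as did 1193 of the 11888 genes tested in that fit. Without normal libraries 1 and 2 its log2 fold change was -1.54, and within the libraries of 2 mice it was -1.55. The Jagged ligands thus had fold changes of opposite sign, Jag1 positive and Jag2 negative.

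Among the 13 tested genes of receptor processing and glycosylation, 7 log2 fold changes were positive and 6 negative. Psen2, a catalytic subunit of gamma-secretase, which frees the intracellular part of the receptor, had a mean of 59.3 ± 7.87 CPM in CAF, against 106 ± 19.6 CPM in the controls, with no overlap (log2 fold change -0.84 ± 0.29 SE; adjusted p = 0.224). Furin, the protease that cuts the receptor on its way to the surface, was at 231, 123 and 102.5 CPM in CAF libraries 1, 2 and 3, against 1108, 698 and 101 CPM in normal libraries 1, 2 and 3. Furin thus resembled Hes1, with normal libraries 1 and 2 above every CAF library. Normal library 3 lay below CAF library 3 by less than the level of 1 count in normal library 3, so their order is not resolved. Its log2 fold change was -2.07 ± 0.78 (SE, adjusted p = 0.261). It was -2.66 without normal library 3 (adjusted p = 0.0149), the fit that called 1193 of 11888 genes, and 0.62 against normal library 3 alone.

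The other genes without overlap are named for that reason, after their values were seen. Ncstn, another gamma-secretase subunit, was at 87.4 ± 4.93 CPM in CAF, against 64.2 ± 10.7 CPM in the controls (adjusted p = 0.534). Poglut1, which adds glucose to the receptor's extracellular repeats, was at 26.5 ± 1.42 CPM in CAF, against 15.2 ± 6.42 CPM in the controls (adjusted p = 0.435). The enzymes of receptor glycosylation did not share a direction, since Rfng, a Fringe that extends O-fucose on Notch, was at 42.6 ± 9.92 CPM in CAF, against 72.3 ± 14.2 CPM in the controls (adjusted p = 0.306). The noncanonical ligands Dlk2 and Dner and the target Hes7 had 14 counts or fewer in CAF and 19 or fewer in normal libraries, and did not pass the filter.

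In the nuclear complex and its cofactors, 8 of 11 tested genes had a positive log2 fold change, and the groups of all 12 listed genes overlapped. The genes of smallest p were Spen, a corepressor that binds RBPJ, at a log2 fold change of -0.58 (adjusted p = 0.532), and the deacetylase Hdac1 at 0.87 (adjusted p = 0.534). Rbpj itself was at 1.46, 16.3 and 27.2 CPM in CAF libraries 1, 2 and 3, against 1.63, 10.1 and 10.0 CPM in normal libraries 1, 2 and 3, with 1 count in CAF library 1. Among the ubiquitin ligases and endocytic regulators 5 of 11 were positive, led by p by Numbl, a homologue of the Notch inhibitor Numb, at 0.75 (adjusted p = 0.535), and Dtx4, a Deltex ligase, at -0.81 (adjusted p = 0.545).

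Of the 6 further targets tested, 5 had a positive log2 fold change. Hes6, a relative of Hes1 that can counter it, had a mean of 65.3 ± 11.3 CPM in CAF, against 36.6 ± 13.9 CPM in the controls, with no overlap (log2 fold change 0.81 ± 0.38 SE; adjusted p = 0.369). Myc, the growth regulator, was at 48.9 ± 26.7 CPM in CAF, against 76.5 ± 11.6 CPM in the controls, at -0.63 ± 0.42 (SE; adjusted p = 0.558).

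**Figure D5:**
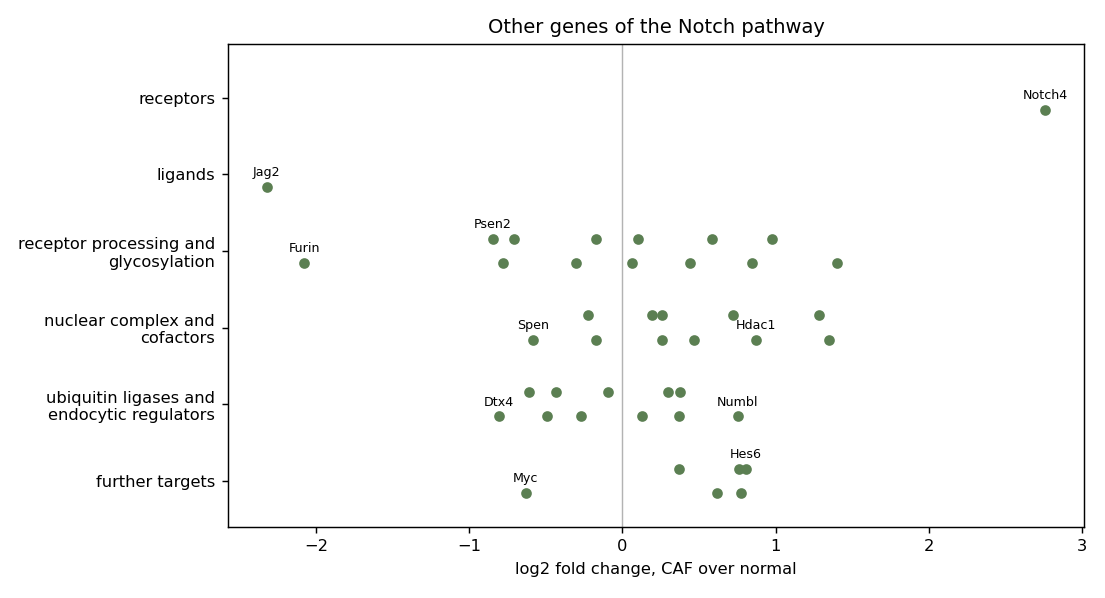
Log2 fold change of CAF over normal (horizontal axis) for the 43 other tested Notch pathway genes, in rows by role; each point is a gene, its height within a row has no meaning, and named genes are those described. Jag2 and Furin lie at the low end and Notch4 at the high end, at -2.32, -2.07 and 2.76.

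The genes with the profiles most like those of the 3 best counted members were sought by the smallest root mean square difference of log2(CPM + 1) over the 6 libraries, after each gene's own mean was taken off, among 6969 named genes with a mean of at least 50 counts. For Notch1 they were Fam20b, a kinase of proteoglycan synthesis, and Coq5, a methyltransferase of coenzyme Q synthesis (differences of 0.061 and 0.085). For Notch3 they were Pde4dip, a Golgi and centrosome scaffold, and Snapc3, a subunit of a small nuclear RNA gene activator (0.171 and 0.198). For Hes1 they were Cblc, a ubiquitin ligase of epithelial cells, and Hint2, a mitochondrial hydrolase (0.158 and 0.171). Cblc was at 14.6, 13.0 and 12.6 CPM in CAF libraries 1, 2 and 3, against 50.6, 27.9 and 10.0 CPM in normal libraries 1, 2 and 3. Hint2 was at 71.7, 60.9 and 56.8 CPM in CAF libraries, against 166, 143 and 46.3 CPM in normal libraries. Both had the order of the Hes1 values in all 6 libraries, for which likeness they were selected.

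In the authors' deposited table, which compares the same groups, the adjusted p of the 9 genes ran from 0.18 for Nrarp and 0.182 for Hey1 to 0.899 for Notch2, and none is marked as passing there.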

How the data were processed

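Raw counts of 6 libraries, as the authors deposited them by gene symbol, were the values tested. Beside them the authors deposited a normalized signal (the count over the library's size factor, checked on the values), regularized log2 values, which were not used, and their own log2 fold change, p-value and adjusted p-value. Cutadapt, STAR, HTSeq, DESeq2 and mm10 are named in the submitters' processing notes, with versions, annotation, strand and the treatment of molecular identifiers not given in the sources used here. Every listed gene has at least 6 counts in some library.

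The test was edgeR's quasi-likelihood F test (version 4.0.16; R 4.3.3) on group alone, after filterByExpr and scaling by the trimmed mean of M-values, with adjustment over 10148 genes and a threshold of 0.05. Standard errors were derived from the F statistic. CPM, with no pseudocount, are on scaled library sizes. DESeq2 1.42.0 and limma-voom (limma 3.58.1) were alternatives, with other scalings, filters, a covariate for mice, and libraries left out. Within-library shares, the depth block (over or under 2000000 counts) and the subsets of 3 libraries were added after seeing the data. The members, the lists and the rule for naming genes (all members; of each role of the wider list the called genes or else up to 2 of smallest p; the 2 nearest profiles of tested members with a mean of at least 50 counts) were chosen with earlier results of these data known; Rbpj, Kcnj8, Cldn5, Cdh5, Tie1, the wider genes without overlap other than Notch4, Jag2, Psen2 and Hes6, and the motifs other than TGGGAA and GTGGGAA were singled out after their values or letters were seen. The other pericyte, smooth muscle, endothelial, epithelial and gland genes given by name, such as Higd1b, Rgs5, Cldn3 and Gkn1, were not fixed by the naming rule either. Each library came from its own mouse or pair of mice, and replicates differed beyond sampling noise (chi-square per degree of freedom 11.2 to 75.0). Gene positions are from GENCODE M21 on mm10. On simulated counts the test called 2 of 47, 24 of 48, 44 of 50 and 50 of 50 genes changed 2-, 4-, 8- and 32-fold. Intervals and floors cover counting error only.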

Additional observations from a re-analysis of the deposited data

How the results depend on the processing

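No paired analysis was possible because the labels give the groups no shared replicate numbers. The count of Notch members called was 0 to 2 with 1 library left out (2 without normal library 3), 2 within the libraries of 2 mice and 6 within the deeper libraries, and 0 under the other alternatives. The count of wider pathway genes called was 2 with DESeq2, 0 to 2 with 1 library left out, and 8, 7 and 14 within the libraries of 2 mice, of 1 mouse and the deeper libraries. Over all genes it was 112, against 935 with DESeq2, 65 with limma-voom, 51 with the depth block, 0 without normal libraries 1 and 2 (1271 at an unadjusted p under 0.05), 0 to 1193 with 1 library left out (1193 without normal library 3; 0 without normal library 1, with 793 unadjusted), and 1996, 1521, 3779 and 0 within the libraries of 2 mice, of 1 mouse, the deeper and the shallower libraries (532 unadjusted in the last). In those subsets 1 group is a single library and the spread comes from the other pair.

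Log2 fold changes of members were turned without normal libraries 1 and 2 for Notch1 (0.013), Hes1 (0.66) and Nrarp (0.27), within the libraries of 2 mice for Hes1 (0.45) and Nrarp (0.31), and within those of 1 mouse for Notch3 (-0.0038) and Dll1 (0.53). The fits that brought members past the threshold gave Hes1 -1.45 and Nrarp -2.19 without normal library 3. Over the fits with 1 library left out in which the gene passed the filter, Hes1 ran from -1.45 to -0.46 and Nrarp from -2.19 to -1.52. Nrarp has no value without normal library 1. Such fits also gave Notch3 2.11 and Dll1 -2.29 within the libraries of 2 mice. Within the deeper libraries they gave Notch2 9.17, Notch3 1.78, Jag1 3.30, Hes1 -1.89, Hey1 3.95 and Nrarp -2.11. The Notch2 value is a fit against 0 counts and no bound. Furin turned to 0.62 without normal libraries 1 and 2 and 0.16 within the libraries of 2 mice, Spen to 0.11 within the shallower libraries, Hdac1 to -0.13 and -0.19 and Numbl to -0.30 within the libraries of 2 mice or the deeper ones (Hdac1), and Dtx4 to 0.050 within the deeper libraries. The cause was not tested. With relative log expression, upper-quartile factors, gland genes removed before scaling, no filter, 10 counts in 3 libraries, mice as a covariate, limma-voom and DESeq2, no member that could be fitted changed direction or was called. Hey1, Jag1, Heyl, Notch2 and Nrarp fell below the filter in some fits and have no value there. At this depth 1 count is worth 1.46 CPM in CAF library 1 and 1.25 to 1.27 CPM in normal libraries 2 and 3.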
